A study of Mus musculus with 16 samples.

Results

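Annexins are a family of cytosolic proteins that bind acidic phospholipids when calcium rises, and the report covers the members Anxa1, Anxa2, Anxa3, Anxa4, Anxa5, Anxa6, Anxa7 and Anxa11 in sorted mouse microglia. The members are taken by gene symbol, with no measured value in the rule, although the list was drawn up with earlier results of these data known. Of the 8 symbols listed, 7 were found among the 20267 genes of the gene table, and all 7 were among the 13912 genes that passed a filter on low values (at least 1 CPM in at least 4 libraries, where CPM is reads scaled to a library total of 1000000). Anxa1 was not analysed here. The same 7 genes accounted for 33 of the 61144 transcripts of the transcript table, 21 of which passed the filter among 34322 transcripts.

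RNA was sequenced from microglia of 16 C57BL/6J mice, 4 in each of 4 groups. AD mice carried the APPswe/PS1dE9 transgenes, which lead to amyloid plaques, and WT mice did not. All mice were homozygous for a floxed allele of Mapk14, the gene of the kinase p38α. The p38KO mice also carried Cx3cr1-creERT2 on 1 allele, so they lost p38α after tamoxifen, and p38+/+ mice had no Cre. The groups were therefore AD p38KO, AD p38+/+, WT p38KO and WT p38+/+. Tamoxifen was given in the food at 400 ppm to every mouse, starting at 5 months and lasting 4 weeks, and tissue was taken at 11 months. Cells positive for both CD11b and P2ry12 were sorted from 1 hemisphere, and the 4 libraries of a group came from the best RNA of 6 mice. The Cre driver disrupts 1 copy of Cx3cr1 and is active in other myeloid cells that express Cx3cr1, so the loss of p38α and the loss of 1 Cx3cr1 copy cannot be told apart here. The labels give 5 female and 11 male mice.

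Annexins share a core that docks on membranes through bound calcium, and their N-terminal ends differ and bind partner proteins. Annexin A5 coats exposed phosphatidylserine, the lipid that marks dying cells for uptake by phagocytes such as microglia. Annexin A2 pairs with S100a10 and serves as a docking site for plasminogen, and several annexins gather at wounds in the plasma membrane and help to close them. In microglia, annexins are best known in the uptake of dying cells and in membrane traffic.

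The p38 genotype of the libraries was checked on the p38α transcript, and the cell type on microglial markers. No check of the sex labels is given here. The transcript of p38α isoform 1 reached at most 0.248 CPM in AD p38KO mice, against 58.5 to 71.0 CPM in AD p38+/+ mice, and at most 0.214 CPM in WT p38KO mice, against 47.1 to 82.6 CPM in WT p38+/+ mice. The gene total of Mapk14, which also counts reads of its other transcripts, stayed closer between genotypes, at 142.1 to 166.0 CPM in AD p38KO against 151.6 to 173.5 CPM in AD p38+/+ mice and 138.1 to 168.6 CPM in WT p38KO against 161.8 to 210.2 CPM in WT p38+/+ mice. The check of the p38 genotype therefore rests on the transcript table. A list of 8 microglial markers summed to between 53481 and 66274 CPM in every library. The files hold CPM rather than reads. Their smallest steps put 1 CPM at 12.3 to 16.4 reads, so that 3 reads, used here as a floor, correspond to 0.183 to 0.244 CPM. AD p38KO libraries detected 15485 to 16852 genes, against 17230 to 18054 in AD p38+/+, 17443 to 17671 in WT p38KO and 16987 to 17942 in WT p38+/+ libraries. AD p38KO mouse 4 and WT p38KO mouse 3 held 467.3 and 363.7 CPM of red blood cell transcripts. AD p38KO mouse 1 had the most monocyte transcripts and AD p38KO mouse 4 the most red blood cell transcripts, and calls are also given without this pair where they were lost. The pair was chosen after the data were seen and holds the highest libraries for Anxa2, while WT p38KO mouse 3 stayed in. With fewer mice in the group, a lost call need not mean a smaller difference.

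The family was dominated by 1 member. Per kilobase of transcript, a scale on which different genes can be compared, Anxa3 averaged 206.8 CPM per kb over the 16 libraries (range 177 to 249), and it made up 61.1% of the CPM of the 7 genes. Anxa5 and Anxa6 followed at 28.1 CPM per kb (13.6 to 47.9) and 28.0 CPM per kb (22.2 to 35.1). Their order followed the APP/PS1 genotype. Anxa5 was the higher of the pair in 8 of 16 libraries, every one from an AD mouse, and the lower in every WT library. Anxa6 averaged 25.6 CPM per kb in AD p38KO, 28.5 in AD p38+/+, 27.8 in WT p38KO and 30.1 in WT p38+/+ mice. Anxa7 averaged 19.4 CPM per kb (13.3 to 23.7) and Anxa4 averaged 13.5 CPM per kb (11.2 to 16.1). Anxa6 was above Anxa7, and Anxa7 above Anxa4, in 15 of 16 libraries each. The lowest members were Anxa11 at 2.98 CPM per kb (1.76 to 3.98) and Anxa2 at 1.85 CPM per kb (0.0841 to 6.76). Anxa11 exceeded Anxa2 in 13 of 16 libraries. Anxa5 changed its place with genotype on this scale, with 39.3 ± 5.02 CPM per kb in AD p38KO and 37.1 ± 7.28 in AD p38+/+ mice, against 19.5 ± 1.77 in WT p38KO and 16.4 ± 2.69 in WT p38+/+ mice (SD, n = 4 each).

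**Figure D1:**
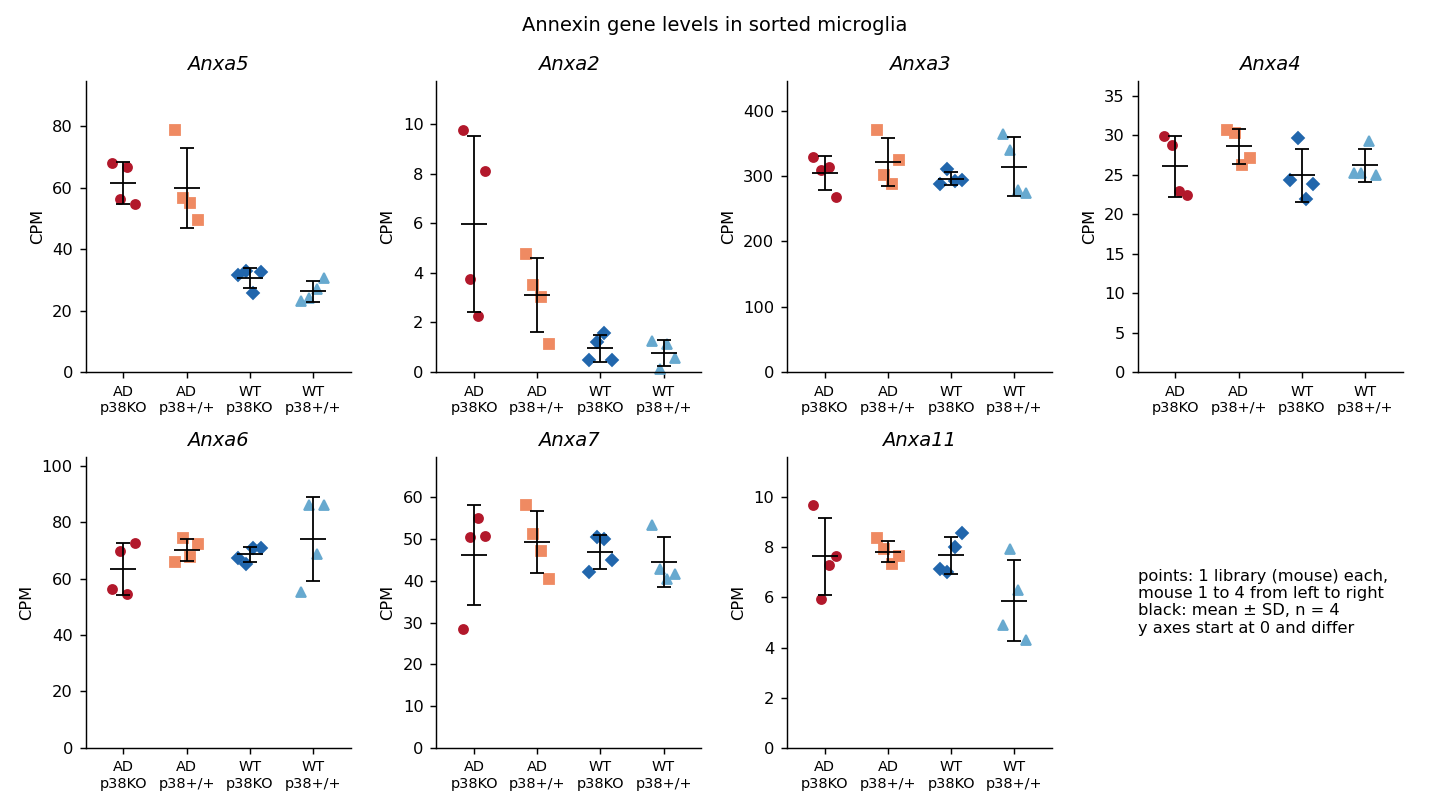
Level of each of the 7 annexin genes in CPM (y axis, starting at 0 and differing between panels) in the 4 groups (x axis), with 1 point per mouse and the mean ± SD in black (n = 4). Anxa5 lies between 49.3 and 78.9 CPM in the 8 AD mice and between 23.2 and 32.7 CPM in the 8 WT mice, Anxa2 is higher in most AD mice, and the groups overlap for the other 5 genes.

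Anxa5 was higher in AD than in WT microglia at either p38 genotype, 2.24-fold in p38+/+ mice and 1.98-fold in p38KO mice. Anxa5 (ENSMUSG00000027712) lies on the minus strand of chromosome 3 at chr3:36448923-36475894 (GRCm38), and its main transcript, Anxa5-201, has 13 exons and 319 codons. The bases before its start are printed because Anxa5 and Anxa2 were the members that rose in AD mice. The stretch is chr3:36475895-36476137 on the minus strand (RefSeq, GRCm38.p6), and it is the promoter window of 250 bases less the 7 that are transcribed.

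Anxa5: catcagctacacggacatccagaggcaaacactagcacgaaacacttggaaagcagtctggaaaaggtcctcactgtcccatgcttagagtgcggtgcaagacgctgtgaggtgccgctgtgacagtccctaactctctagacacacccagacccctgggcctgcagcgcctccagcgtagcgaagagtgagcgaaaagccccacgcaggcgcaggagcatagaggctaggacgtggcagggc

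Capitals would mark a match to any of 7 motifs searched on both strands, and none was found. The motifs were the TATA box (TATAAA), the AP-1 site (TGANTCA), the PU.1 core (GAGGAA), the GC box (GGGCGG), the CCAAT box (CCAAT), the E-box (CACGTG) and the CRE (TGACGTCA). Of 32851 RefSeq mouse promoter windows of the same length, they were present in 12.4%, 6.75%, 23.3%, 32.7%, 33.8%, 6.02% and 1.55% in that order, and a window without these letters is a description only. None of these motifs contains another. 

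In AD p38KO mice 1 to 4, Anxa5 measured 68.0, 56.3, 66.6 and 54.7 CPM, against 31.6, 32.7, 25.8 and 32.5 CPM in WT p38KO mice. In AD p38+/+ mice it measured 78.9, 56.7, 54.9 and 49.3 CPM, against 23.2, 24.2, 26.9 and 30.6 CPM in WT p38+/+ mice. Every AD mouse was above every WT mouse, and AD p38+/+ mouse 1 was the highest of all. Of all 13912 genes, 0.546% had all 8 AD libraries above all 8 WT libraries. The means were 61.4 ± 6.84 CPM in AD p38KO, 59.9 ± 13.01 in AD p38+/+, 30.7 ± 3.27 in WT p38KO and 26.2 ± 3.31 CPM in WT p38+/+ mice (SD, n = 4 each).

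In a limma model of log2(CPM + 0.5) over all 16 libraries, with Benjamini-Hochberg adjustment over all genes tested, the log2 fold change of Anxa5 was 1.16 (SE 0.155, 95% interval 0.84 to 1.49) in AD p38+/+ against WT p38+/+ mice, with an adjusted p of 0.00143. In AD p38KO against WT p38KO mice it was 0.99 (SE 0.155, interval 0.66 to 1.31) with an adjusted p of 0.00634. The main effect of the APP/PS1 transgenes, which averages both differences, was 1.08 (SE 0.110, interval 0.84 to 1.31) with an adjusted p of 2.37e-05, or 2.11-fold (1.80 to 2.47). Exact permutation tests over mice (two-sided) gave p = 0.0286 in either p38 genotype, the smallest p that 4 against 4 allows. At an adjusted p under 0.05, 1 of the 7 annexins was called in AD p38+/+ against WT p38+/+ mice (Anxa5), where 0.359% of all genes were called. In AD p38KO against WT p38KO mice 1 of 7 was called (Anxa5, 0.323% of all genes), and for the main effect 2 of 7 (Anxa5 and Anxa2, 1.03% of all genes). Those called were higher in AD mice. Anxa5 ranked 7 by p among all genes in AD p38+/+ against WT p38+/+ mice, 13 in AD p38KO against WT p38KO mice and 9 for the main effect. Without AD p38KO mice 1 and 4, the log2 fold change in p38KO mice was 0.99 with an adjusted p of 0.0505, above the threshold of 0.05, and the main effect of Anxa5 had adjusted p values from 1.47e-05 to 0.000438 over its alternatives.

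Anxa5 and the genes of disease-associated microglia were both higher in AD mice. Microglia take this state around plaques, and it is marked by lipid handling and lysosomal genes. The list of 12 such genes summed to 3150 to 4352 CPM in AD p38KO mice and 3153 to 5354 CPM in AD p38+/+ mice, against 1801 to 2141 CPM in WT p38KO and 1682 to 1889 CPM in WT p38+/+ mice. AD p38+/+ mouse 1 had both the highest sum and the highest Anxa5. Within AD p38+/+ mice the sum and Anxa5 had the same order over mice 1 to 4, but not within the other groups. In AD p38KO mice, mouse 2 had the highest sum (4352 CPM) with 56.3 CPM of Anxa5. Mouse 3 of that group had the lowest sum (3150 CPM) with 66.6 CPM of Anxa5. Of the 11 list genes tested, 10 were called higher in AD mice for the APP/PS1 main effect (1.03% of all genes were called), 9 in p38+/+ mice (0.359%) and 6 in p38KO mice (0.323%). Without AD p38KO mice 1 and 4, a set of libraries left out here after the data were seen, 9, 9 and 4 of the 11 were called. Of all 13753 genes tested in that setting, 127, 58 and 20 were called in the same order. Whether this list had a part in the Anxa5 difference was not tested, and in sorted cells a larger number of cells in 1 state and more RNA per cell cannot be told apart.

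Both female AD mice, at 68.0 and 78.9 CPM of Anxa5, lay above all 6 male AD mice, at 49.3 to 66.6 CPM. In WT mice the sexes overlapped, and the 3 female WT mice had 23.2 to 32.7 CPM and the 5 male WT mice 24.2 to 32.5 CPM. A fit with sex as a covariate gave the same calls for Anxa5, and the part of sex in its level was not tested.

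Anxa2 was the other member that rose in AD microglia, from a low level, 3.42-fold for the APP/PS1 main effect. Annexin A2 pairs with S100a10 and helps to assemble plasminogen at the cell surface. Anxa2 (ENSMUSG00000032231) lies on the plus strand of chromosome 9 at chr9:69453620-69491795, and its main transcript, Anxa2-201, has 13 exons and 339 codons. It lies 50.4 Mb from Cx3cr1 on the same chromosome. The bases before its start, chr9:69453433-69453619 on the plus strand (RefSeq, GRCm38.p6), are the promoter window less 63 transcribed bases.

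Anxa2: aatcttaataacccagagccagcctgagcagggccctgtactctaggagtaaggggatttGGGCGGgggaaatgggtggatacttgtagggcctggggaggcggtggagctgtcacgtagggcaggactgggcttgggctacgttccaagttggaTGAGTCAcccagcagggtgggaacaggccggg

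Capitals mark a GC box (GGGCGG) and an AP-1 site (TGANTCA) in the bases shown. The whole 250-base window, part of which is transcribed, held 1 TATA box, 1 AP-1 site and 3 GC boxes.

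Anxa2 measured 9.77, 3.74, 2.25 and 8.12 CPM in AD p38KO mice 1 to 4, against 0.488, 1.23, 1.58 and 0.502 CPM in WT p38KO mice. In AD p38+/+ mice it measured 4.75, 3.52, 3.03 and 1.13 CPM, against 1.23, 0.122, 1.14 and 0.578 CPM in WT p38+/+ mice. The p38KO groups did not overlap, whereas AD p38+/+ mouse 4 lay below 2 WT p38+/+ mice. WT p38+/+ mouse 2 was under its floor of 3 reads (0.183 CPM), and the values rested on an estimated 2 to 130 reads. The means were 5.97 ± 3.55 CPM in AD p38KO, 3.11 ± 1.50 in AD p38+/+, 0.950 ± 0.545 in WT p38KO and 0.768 ± 0.518 CPM in WT p38+/+ mice (SD, n = 4 each).

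The log2 fold change of Anxa2 for the APP/PS1 main effect was 1.77 (SE 0.344, interval 1.05 to 2.50) with an adjusted p of 0.0122, the fold 3.42 (2.07 to 5.65), and the rank 84 among all genes. In AD p38KO against WT p38KO mice it was 2.05 (interval 1.02 to 3.07), with an unadjusted p of 0.000569 and an adjusted p of 0.0976, so it was not called. In AD p38+/+ against WT p38+/+ mice it was 1.50 (interval 0.47 to 2.52), with an adjusted p of 0.390. Exact permutation tests over mice (two-sided) gave p = 0.0286 in p38KO and p = 0.0857 in p38+/+ mice. In p38KO mice 2 of 7 annexins, Anxa2 and Anxa5, were higher in AD mice without overlap, against 2.6% of all genes, and in p38+/+ mice 1 of 7, Anxa5, against 3.36%. The added 0.5 CPM is near the WT means of Anxa2, so the size of its fold depends on that choice. Over the alternatives, added values of 0.1 and 1 CPM among them, its main effect ran from 1.41 to 2.24. Ratios of mean CPM, AD over WT, were 6.29 in p38KO and 4.05 in p38+/+ mice.

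The Anxa2 call rested in part on AD p38KO mice 1 and 4, the highest libraries. These also detected the fewest genes, 16042 and 15485, against at least 16677 in every other library. All AD p38KO libraries, at 15485 to 16852 genes, were below those of the other groups, at 16987 or more. The part of this in the Anxa2 level was not tested. Without AD p38KO mice 1 and 4, the main effect was 1.41 with an adjusted p of 0.0713, and the log2 fold change in p38KO mice was 1.31 with an adjusted p of 0.601. Without AD p38KO mouse 3 alone, the lowest of its group, the p38KO difference was 2.39 with an adjusted p of 0.0491. Leaving out the highest or lowest mice of a group moves its mean in a direction known beforehand. These fits show only how far the call depends on those mice. Leaving out any single library, the main effect was between 1.62 and 1.95 and was called each time.

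Border-associated macrophages and monocytes are other myeloid cells with CD11b, although the sort required P2ry12 as well. Their marker genes were measured beside Anxa2. The list of 9 border-associated macrophage genes summed to 26.8 to 70.2 CPM in AD p38KO mice and 32.1 to 144.6 CPM in AD p38+/+ mice, against 54.0 to 129.1 CPM in WT p38KO and 22.7 to 80.7 CPM in WT p38+/+ mice. Of these genes, 9 of 9 had a positive log2 fold change in AD p38+/+ against WT p38+/+ mice (median 0.41) and 1 of 9 in AD p38KO against WT p38KO mice (median -0.50), with 0 of 9 called in either and a main-effect median of 0.05. The 6 monocyte genes in the table, of 8 listed, summed to 5.98 to 28.2 CPM in AD p38KO and 7.60 to 13.6 CPM in AD p38+/+ mice, against 3.82 to 18.0 CPM in WT p38KO and 6.56 to 19.4 CPM in WT p38+/+ mice. AD p38KO mouse 1 had the highest monocyte sum, the highest Anxa2 and 11.5 CPM of Ahnak, a large scaffold protein that binds the annexin A2 and S100a10 complex, against at most 1.37 CPM in all 15 other libraries. It had the lowest border-associated macrophage sum of its group. AD p38KO mouse 4, at 8.12 CPM of Anxa2, had a monocyte sum of 7.67 CPM and Ahnak at 0. WT p38+/+ mouse 2 had a monocyte sum of 19.4 CPM and the lowest Anxa2, 0.122 CPM. Of the neutrophil list only Mmp9 was in the table, at 0 to 6.92 CPM, so that list could not be used. The part of these cells in the Anxa2 level was not tested.

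**Figure D2:**
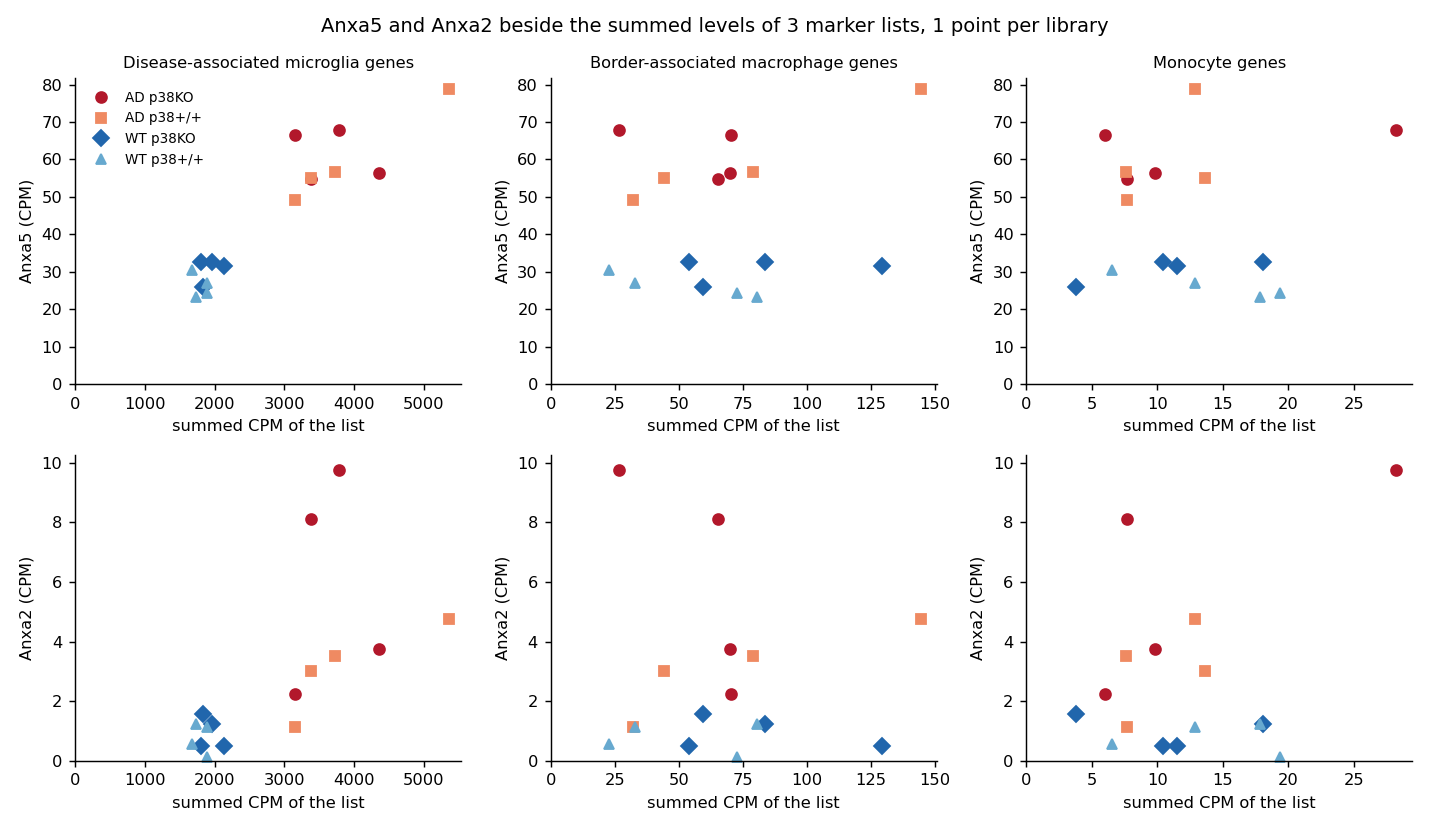
Anxa5 (upper row) and Anxa2 (lower row) in CPM (y axes) against the summed CPM of the disease-associated microglia, border-associated macrophage and monocyte lists (x axes), with 1 point per library and a colour and marker per group. AD libraries sit at disease-associated sums of 3150 to 5354 CPM and WT libraries at 1682 to 2141 CPM, while the other lists overlap between AD and WT mice.

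Anxa3, the highest member and an annexin enriched in microglia among the cells of the brain, did not pass the test in any of the 7 comparisons. Anxa3 (ENSMUSG00000029484) is on the plus strand at chr5:96793339-96845966, with 13 exons and 323 codons in Anxa3-201. It measured 329.8, 309.7, 313.5 and 268.5 CPM in AD p38KO mice and 371.4, 302.0, 287.4 and 324.3 CPM in AD p38+/+ mice. The WT p38KO mice had 287.3, 311.4, 292.2 and 294.2 CPM, and the WT p38+/+ mice 364.9, 339.7, 278.1 and 274.6 CPM. All 4 groups overlapped, and the highest mice were in the p38+/+ groups. The APP/PS1 main effect on Anxa3 was 0.04 on the log2 scale with an adjusted p of 0.897, and its 95% interval ran from 0.919-fold to 1.15-fold. A p above the threshold does not show that the levels were equal.

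Anxa6 carries an additional copy of the annexin core and takes part in endocytic traffic. It (ENSMUSG00000018340) is on the minus strand at chr11:54979108-55033445, and Anxa6-202 has 26 exons and 673 codons. Anxa6 measured 56.2, 69.95, 54.6 and 72.5 CPM in AD p38KO mice and 66.0, 74.3, 67.6 and 72.3 CPM in AD p38+/+ mice. It measured 67.4, 65.4, 70.9 and 70.7 CPM in WT p38KO mice and 55.4, 86.0, 68.9 and 86.0 CPM in WT p38+/+ mice. The groups overlapped, and both the lowest and the highest values of WT mice were in the WT p38+/+ group. The APP/PS1 main effect was -0.09 (adjusted p = 0.786, fold interval 0.812 to 1.08).

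Anxa7, also called synexin and known for bringing membranes together, is at chr14:20455260-20480133 on the minus strand (ENSMUSG00000021814), with 13 exons and 463 codons in Anxa7-201. Anxa7 measured 28.5, 50.5, 55.1 and 50.8 CPM in AD p38KO mice and 58.1, 51.3, 47.2 and 40.4 CPM in AD p38+/+ mice. It measured 42.1, 50.6, 50.1 and 45.1 CPM in WT p38KO mice and 53.3, 42.8, 40.4 and 41.6 CPM in WT p38+/+ mice. AD p38KO mouse 1 was the lowest of all 16, and the groups overlapped. The APP/PS1 main effect was 0.04 (adjusted p = 0.949, fold interval 0.850 to 1.24), and it changed sign when AD p38KO mouse 3 or AD p38+/+ mouse 1 was left out, with a lowest value of -0.01.

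Anxa4, which orders membrane lipids and is best known from epithelia, is at chr6:86736840-86793584 on the minus strand (ENSMUSG00000029994) with 319 codons. Its values were 29.9, 28.8, 23.0 and 22.4 CPM in AD p38KO mice and 30.7, 30.3, 26.2 and 27.1 CPM in AD p38+/+ mice. They were 24.3, 29.6, 21.9 and 23.8 CPM in WT p38KO mice and 25.2, 25.3, 29.3 and 24.9 CPM in WT p38+/+ mice. The groups overlapped, and the APP/PS1 main effect was 0.09 (adjusted p = 0.802, fold interval 0.914 to 1.24).

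Anxa11, which links RNA granules to lysosomes in neurons, is at chr14:25842156-25886804 on the plus strand (ENSMUSG00000021866), with 15 exons and 503 codons. It measured 9.68, 5.93, 7.29 and 7.65 CPM in AD p38KO mice and 8.37, 7.94, 7.35 and 7.67 CPM in AD p38+/+ mice. It measured 7.16, 7.01, 8.02 and 8.58 CPM in WT p38KO mice and 4.90, 7.95, 6.30 and 4.31 CPM in WT p38+/+ mice. The WT p38+/+ group held the lowest library and overlapped the rest. In AD p38+/+ against WT p38+/+ mice the log2 fold change was 0.42 (unadjusted p = 0.0822, adjusted p = 0.771), and an exact permutation test gave p = 0.114. The APP/PS1 main effect was 0.20 (adjusted p = 0.688, fold interval 0.907 to 1.45).

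Loss of p38α was followed by no called change in the 7 annexins. In AD p38KO against AD p38+/+ mice 0 of 7 passed limma's adjusted threshold (0.0503% of all genes did). An unadjusted p under 0.05 was found for 0 of 7, against 972 of all 13912 genes. In these mice the groups of 0 of 7 annexins failed to overlap, against 3.34% of all genes. In WT p38KO against WT p38+/+ mice the count called was again 0 of 7 (0.00719% of all genes). There 0 of 7 had an unadjusted p under 0.05, against 491 of all 13912 genes, and 0 of 7 were without overlap (2.72% of all genes). For the p38 KO main effect the count called was 0 of 7 (0.0791% of all genes), and 0 at an unadjusted p under 0.05, against 821 of all 13912 genes. The interaction, which asks whether the AD difference depends on p38α, called 0 of 7 and 0% of all genes. At an unadjusted p under 0.05 it held 0 annexins and 546 of all 13912 genes. At such shares a count of 0 of 7 does not set the annexins apart from other genes. Every AD p38KO library detected fewer genes than any library of the other groups. The part of this in the comparisons that use AD p38KO mice was not tested.

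For Anxa5 the log2 fold change of AD p38KO against AD p38+/+ mice was 0.05 (interval -0.28 to 0.38, adjusted p = 0.977), and the sign of this value turned when AD p38KO mouse 1 or AD p38+/+ mouse 4 was left out (range over single libraries -0.04 to 0.19). In WT p38KO against WT p38+/+ mice it was 0.22 (interval -0.10 to 0.55, unadjusted p = 0.167). The Anxa5 interaction was -0.17 (interval -0.63 to 0.29, unadjusted p = 0.439). For Anxa2 the AD p38KO mice were higher in mean than the AD p38+/+ mice, with a log2 fold change of 0.77 (interval -0.25 to 1.80, adjusted p = 0.795) and an exact permutation p of 0.229. The groups overlapped, and the Anxa2 interaction of 0.55 had an interval of -0.90 to 2.00. Without AD p38KO mice 1 and 4, the p38KO difference of Anxa2 in AD mice was 0.04 and its interaction -0.19. Effects of p38KO as large as those upper bounds are within these intervals. For the p38 KO main effect, the fitted log2 fold changes were 0.50 for Anxa2 (adjusted p = 0.868), 0.14 for Anxa5 (0.887), -0.07 for Anxa3 (0.923), -0.11 for Anxa4 (0.914), -0.12 for Anxa6 (0.890), -0.02 for Anxa7 (0.991) and 0.17 for Anxa11 (0.912). The Anxa7 value turned positive with array weights, without AD p38KO mice 1 and 4, or without mouse 1 of any group. The median over the 7 was -0.02, against -0.01 over all genes.

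**Figure D3:**
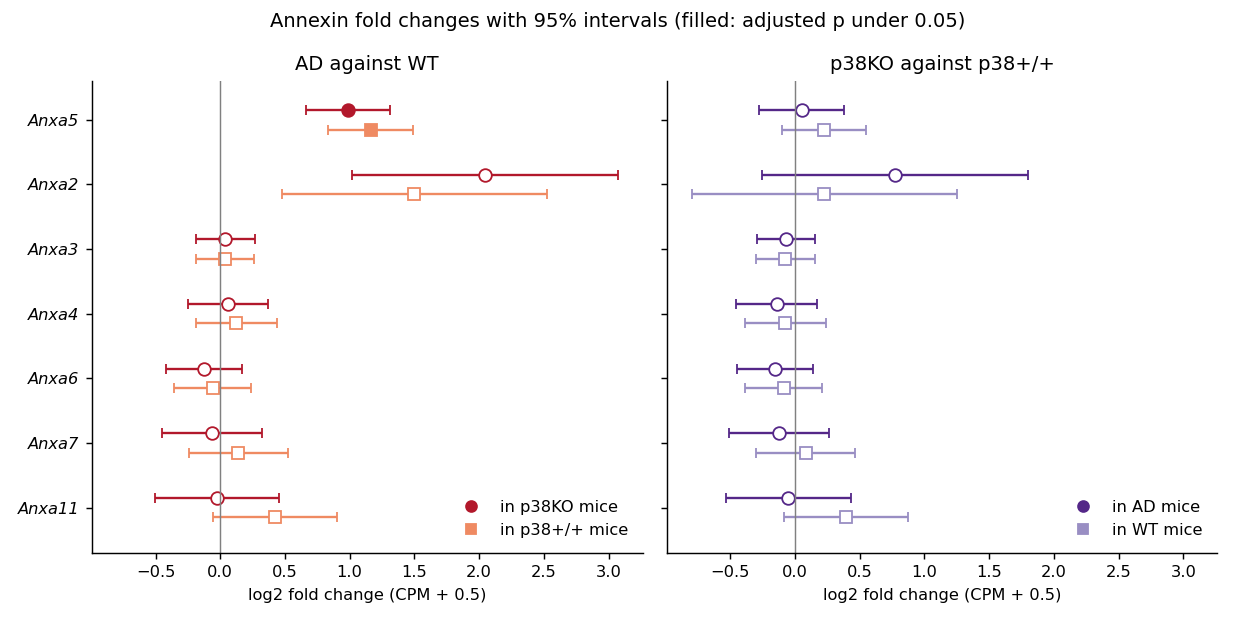
Log2 fold change of each annexin with its 95% interval (x axis) for AD against WT mice (left panel, at either p38 genotype) and for p38KO against p38+/+ mice (right panel, in AD and in WT mice), with filled symbols at an adjusted p under 0.05. Anxa5 lies at 1.16 and 0.99 in the left panel with filled symbols, and no symbol is filled in the right panel.

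Anxa6 and Anxa7 were the members with more than 1 sizeable transcript. Over 16 libraries, Anxa6-202 averaged 56.4% of the transcript CPM of its gene and Anxa6-201 39.8%, and Anxa7-201 averaged 64.9% and Anxa7-207 20.8%. The other members were carried mainly by a single transcript, 98.0% for Anxa2-201, 87.5% for Anxa3-201, 89.5% for Anxa4-201, 95.6% for Anxa5-201 and 90.9% for Anxa11-201. The Anxa6 pair differs by an 18-base coding exon (exon 21, chr11:54987051-54987068, minus strand), shown with 20 bases on either side because it is what sets the main Anxa6 transcripts apart. Capitals mark the bases of that exon.

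Anxa6-202: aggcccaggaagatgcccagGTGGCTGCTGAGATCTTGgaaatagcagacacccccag

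Anxa6-201: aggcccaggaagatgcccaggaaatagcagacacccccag

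In Anxa7, Anxa7-201 and Anxa7-207 have the same coding length and differ in a noncoding first exon and in the 3′ end. A transcript with a longer coding part, Anxa7-202, averaged 4.05% and ranged from 0.278 to 9.33%. It holds a 66-base exon (exon 6, chr14:20467458-20467523, minus strand), which is in capitals.

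Anxa7-202: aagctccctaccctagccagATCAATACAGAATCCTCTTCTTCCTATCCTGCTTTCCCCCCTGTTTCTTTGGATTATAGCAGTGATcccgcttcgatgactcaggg

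Anxa7-201: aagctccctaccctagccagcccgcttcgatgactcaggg

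By mouse, Anxa6-202 took 47.1, 67.1, 51.6 and 55.8% of Anxa6 in AD p38KO, 39.7, 63.9, 49.3 and 66.3% in AD p38+/+, 66.1, 59.0, 71.6 and 47.0% in WT p38KO and 39.5, 52.9, 64.4 and 61.7% in WT p38+/+ mice. All 4 groups overlapped in these shares. Anxa7-201 took 47.2, 56.8, 64.2 and 70.3% in AD p38KO, 63.9, 71.1, 67.2 and 80.7% in AD p38+/+, 61.5, 57.5, 54.0 and 78.8% in WT p38KO and 60.0, 60.6, 76.8 and 67.4% in WT p38+/+ mice. Its groups overlapped too. Of 24 exact permutation tests of shares, over 6 transcripts, 0 gave p under 0.05 and 0 had groups that did not overlap. The smallest was 0.143, for Anxa7-201 in AD p38KO (59.6 ± 9.96%) against AD p38+/+ mice (70.8 ± 7.28%, SD, n = 4 each).

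**Figure D4:**
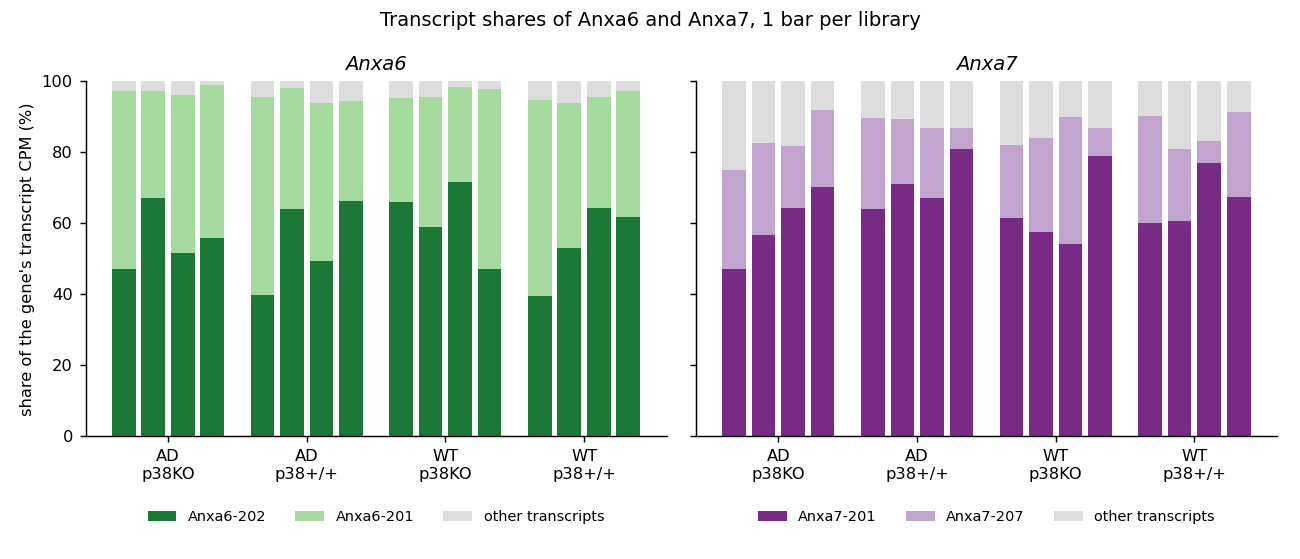
Share of each gene's transcript CPM (y axis, percent) taken by the main transcripts of Anxa6 and Anxa7, with 1 bar per library in the 4 groups (x axis). Anxa6-202 spans 39.5 to 71.6% and Anxa7-201 47.2 to 80.7% over the 16 libraries, and no group stands apart.

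Tested over the 34322 transcripts, the calls for annexin transcripts were those of the genes. Anxa5-201 was higher in AD p38+/+ against WT p38+/+ mice by 1.16 (adjusted p = 0.00620, limma) and in AD p38KO against WT p38KO mice by 0.98 (adjusted p = 0.0255), the single annexin transcript of 21 called in each, where 0.122% and 0.0728% of all transcripts were called. For the APP/PS1 main effect 2 of 21 were called (0.379% of all transcripts), Anxa5-201 with a log2 fold change of 1.07 (adjusted p = 8.83e-05) and Anxa2-201 with 1.80 (adjusted p = 0.0296). The p38KO difference of Anxa5-201 was 0.99 with an adjusted p of 0.140 without AD p38KO mice 1 and 4. It was called in 11 of 16 fits that left out 1 library and lost without AD p38KO mouse 1 or any single WT p38KO mouse (adjusted p 0.00853 to 0.115). For the main effect, Anxa5-201 was called in all 16 fits that left out 1 library (adjusted p 9.33e-05 to 0.000403). Anxa2-201 was called in 6 of them and lost in the other 10, with adjusted p values of 0.0136 to 0.0855, so its transcript call is not firm at this number of mice. The losses came without AD p38KO mice 1 or 4, AD p38+/+ mice 1, 2 or 3, WT p38KO mice 1, 2 or 4, or WT p38+/+ mice 2 or 4. Anxa5-202, a retained-intron transcript at 4.42% of Anxa5, had a main effect of 0.83 (adjusted p = 0.348). With p38KO against p38+/+, 0 of 21 transcripts passed in AD mice (0.032% of all transcripts), in WT mice (0.0146%) and for the main effect (0.166%), and the interaction passed for 0 of 21.

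The genes whose log2(CPM + 0.5) tracked Anxa5 most closely over the 16 libraries were Gnas, a G protein subunit (r = 0.969), Capg, an actin-capping protein (r = 0.968), and Cd63, a tetraspanin of late endosomes and lysosomes (r = 0.967). These values include the AD difference that the libraries share. With the group means taken out the correlations were 0.861, 0.766 and 0.822, so these genes also varied together between mice of the same group. Capg averaged 74.1 ± 9.23 CPM in AD p38KO and 73.9 ± 27.5 in AD p38+/+, against 30.0 ± 5.44 in WT p38KO and 27.4 ± 3.48 CPM in WT p38+/+ mice (SD, n = 4 each). AD p38+/+ mouse 1 was the highest library for Anxa5, Capg, Cd63 and Gnas alike.

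For Anxa2 they were Mettl18, a methyltransferase (r = 0.911), Rpl28, a ribosomal protein (0.871), and Crip1, a small LIM protein (0.870), and with the group means taken out 0.790, 0.733 and 0.531. Anxa2 and Anxa5 had r = 0.790 with each other over the 16 libraries and 0.165 once the group means were taken out. For the other members, Anxa3 was closest to Gm12791 (r = 0.784), Gm49602 (0.776) and Erc1 (0.772), and Anxa4 to Gm11434 (0.840), Enpp5 (0.805) and Top2a (0.797). Anxa6 was closest to Mmp14 (0.859), Tnfrsf13b (0.827) and Pld1 (0.824). Anxa7 was closest to Gm32591 (0.884), Naf1 (0.883) and Gm15582 (0.855), and Anxa11 to Arpc1b (0.810) and Rab1b (0.808). Among 13912 genes the best of such values is high by selection, and no p is given.

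Partners of annexins were counted as lists written from general knowledge. Of 7 S100 partners, which bind annexins in a calcium-dependent way, 7 were in the table, 6 were tested, and 0 were called in limma's APP/PS1 main effect (1.03% of all genes), with a median log2 fold change of 0.15 against -0.03 over all genes. S100a10, the partner of annexin A2, measured 3.23, 14.4, 9.40 and 4.74 CPM in AD p38KO mice and 4.68, 8.89, 6.05 and 10.5 CPM in AD p38+/+ mice, against 8.22, 11.3, 6.69 and 14.5 CPM in WT p38KO and 11.6, 4.26, 10.8 and 8.03 CPM in WT p38+/+ mice. These groups overlapped, and the main effect of S100a10 was -0.33 (adjusted p = 0.724). Among the others, S100a1 had 0.43 (adjusted p = 0.401), S100a13 0.22 and S100a6 -0.25.

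Of 8 genes of the plasminogen system, 5 were in the table and tested, and 1 was called for the main effect (1.03% of all genes), with a median of 0.23 against -0.03 over all genes. Serpine2, a serpin that blocks plasminogen activators and thrombin, measured 1093, 1058, 939.4 and 1025 CPM in AD p38KO and 1229, 1109, 867.6 and 1002 CPM in AD p38+/+ mice, against 815, 722.4, 899.3 and 653.6 CPM in WT p38KO and 726.8, 652.0, 719.8 and 706.4 CPM in WT p38+/+ mice. The AD mice were higher without overlap in p38+/+ and in p38KO mice, as were 3.36% and 2.6% of all genes. Of all genes, 0.359% were called in p38+/+ mice. The log2 fold changes of Serpine2 were 0.57 in p38+/+ mice (adjusted p = 0.0256), 0.42 in p38KO mice (adjusted p = 0.133) and 0.50 for the main effect (SE 0.0771, adjusted p = 0.00169). Without AD p38KO mice 1 and 4 the main effect of Serpine2 was 0.48 (adjusted p = 0.0130) and the p38KO difference 0.38 (adjusted p = 0.542). The p38+/+ difference of Serpine2 was called in 10 of 16 fits that left out 1 library and lost without AD p38+/+ mouse 1 or 2 or any single WT p38+/+ mouse, with adjusted p values of 0.0123 to 0.132 over the fits. Plaur, the urokinase receptor, had 0.88 (unadjusted p = 0.00106, adjusted p = 0.0795), Plau, urokinase, 0.23 (adjusted p = 0.545), and Plgrkt, a plasminogen receptor, 0.06.

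Of 15 genes that expose or hide phosphatidylserine, the lipid that annexin A5 binds, 12 were in the table, 11 were tested and 0 were called for the main effect (1.03% of all genes), with a median of -0.17 against -0.03 over all genes. The flippases Atp8a1, Atp8a2 and Atp11b and the scramblase Ano6 had -0.18, -0.20, -0.24 and -0.17, at adjusted p values of 0.455 to 0.540. Of 18 genes of membrane repair and of the ESCRT machinery, which pinches and seals membranes, 15 were in the table, 13 were tested and 0 were called (1.03% of all genes), with a median of 0.03. Chmp4c had -0.75 (adjusted p = 0.427), Pdcd6ip 0.11, Vps4a -0.12 and Capn2 0.24. Among the 7 formyl peptide receptors, the receptors of annexin A1, only Fpr1 was in the table and 0 were tested. Fpr1 was listed at 0 in all AD p38KO and all WT p38+/+ mice and reached 2.70 CPM in AD p38+/+ and 0.648 CPM in WT p38KO mice.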

How the data were processed

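RNA-seq libraries of microglia sorted from 16 mice were analysed as 4 groups of 4 mice, grouped by the labels. Alignment by the authors was to mm10 with STAR, followed by quantification against Ensembl models in Partek Flow 10.0.22.0828. The deposited values are CPM (scaled to 1000000 per library) with 0.0001 added, which was subtracted here. Of the value columns, 0 lacked a matching mouse. Low values gave whole reads, to within 0.05, in 73.8 to 80.2% of cases per library, so read counts were not recovered and no counting interval is given. Nothing says how strand was treated, so antisense overlap cannot be told apart.

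Values were taken as log2(CPM + 0.5), with genes of at least 1 CPM in at least 4 libraries, and fitted together with limma 3.58.1 (R 4.3.3, trended empirical Bayes, two-sided, Benjamini-Hochberg over all genes, called at an adjusted p under 0.05). There were 7 comparisons, 4 between groups, both main effects and their interaction. Single values were also compared by exact permutation tests over mice. Each p-value weighs a difference in means with mice as the replicates, and limma's estimate of the spread between mice borrows from other genes. Levels per kb sum each transcript's CPM over its length. Gene positions and exons come from GENCODE M21 (GRCm38) and promoters from RefSeq (GRCm38.p6), in which 5 of 7 members were found. Other steps used pandas 2.3.3, numpy 2.4.6, scipy 1.17.1 and matplotlib 3.10.9 in Python 3.11.15, and the scripts were tested on simulated data.

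All 8 members were to be described. Of the transcripts, those at 10% or more of their gene and those called were named. For each partner list the called genes and up to 4 with the smallest p were given, and for each member the 3 genes with the highest correlation over libraries, of which 1 is not reported here. The members and lists were chosen with earlier results of these data known. Alternatives covered the pseudocount (0.1 or 1 CPM), filters, scalings, array weights, a fit to the compared groups alone, sex, labels ending in S0, the animal number as a block, the summed transcript table, and leaving out libraries.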

Additional observations from a re-analysis of the deposited data

Results flagged for a closer look

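In 28 groups of 4 mice (7 annexins in 4 groups), 2 held a mouse far from the other 3 by Dixon's ratio of the gap to the range at the 95% level. Chance gives about 1 in 20 groups. WT p38+/+ mouse 3 had 29.3 CPM of Anxa4 (ratio 0.927), and WT p38KO mouse 3 had 25.8 CPM of Anxa5 (ratio 0.844), the library with 363.7 CPM of red blood cell transcripts. The cause was not tested.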

How the results depend on the processing

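Of 960 values (33 results under up to 30 settings), 926 kept their direction and their side of the threshold, or stayed within 1.5 times for a count. For AD p38KO against WT p38KO mice, 0 annexin genes were called without AD p38KO mice 1 and 4, and 1 to 2 when single libraries were left out. Over all genes, 20 of 13753 were called without these mice, against 45 of 13912 in the main fit. With single libraries left out, 22 to 53 of all genes were called. For the APP/PS1 main effect 1 annexin gene was called with a filter of 5 CPM, which removes Anxa2 (138 of all 10643 genes). Without AD p38KO mice 1 and 4, 1 annexin gene was called for it (127 of all 13753 genes). Transcripts called for the main effect numbered 1 with that filter, with a replicate block on the animal number, with that block and sex, and without AD p38KO mice 1 and 4, and 1 to 2 with single libraries left out.

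Signs turned for some values that were not called. Anxa2 in WT p38KO against WT p38+/+ mice was -0.0021 with the block and sex and -0.0797 to 0.413 with single libraries left out, and its interaction was -0.19 without AD p38KO mice 1 and 4. Anxa5 in AD p38KO against AD p38+/+ mice ran from -0.0355 to 0.19 with single libraries left out, and the Anxa7 main effect of APP/PS1 from -0.0108 to 0.15. The Anxa7 p38 KO main effect was 0.0250 with array weights, 0.0951 without AD p38KO mice 1 and 4, and -0.0699 to 0.0865 with single libraries left out. The causes were not tested.

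Animal numbers did not pair the mice. Deviations of same-numbered mice correlated at -0.131 to 0.184 over 24 pairs, and 2 were over 0.1. With the replicate block the annexin gene counts were the same in all 7 comparisons, 1, 1 and 2 for AD against WT mice in p38+/+, in p38KO and for the main effect, and 0 for the others. Depth limits Anxa2, whose values rest on 2 to 130 reads, and 4 mice a group limit the rest.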

Other observations

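Anxa9, an annexin outside the list, was in the table at 0 to 3.08 CPM in AD p38KO, 0.758 to 1.34 in AD p38+/+, 0.215 to 1.16 in WT p38KO and 0.304 to 0.797 CPM in WT p38+/+ mice. Anxa11os, an antisense gene that overlaps Anxa11, was at most 0.985 CPM, and it was at 0 in 3 of 4 AD p38KO mice. How strand was treated in counting is not given in the sources used here.

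Chosen after its values were seen, a shorter Anxa3 transcript of 7 exons with a longer final exon, took 23.7% of Anxa3 (80.5 CPM) in WT p38+/+ mouse 2, against 3.96 to 8.58% in the other 15 libraries. Total Anxa3 in that mouse was 339.7 CPM.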
